A study of Mus musculus with 12 samples.

Results

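Chromosome 15 of the mouse was followed in 12 ATAC-seq libraries of NIH/3T3, an immortal mouse fibroblast line, through 2848 open regions. These are the regions on chromosome 15 whose value averaged 50 or more over the 12 libraries, taken in order of their start, out of 3898 regions on this chromosome and 81995 in the table. They were chosen by the same values that are described below, and the chromosome was picked with its levels known. Its levels, its called regions and the regions that leave its level are therefore given as a description. In ATAC-seq, Tn5 transposase inserts sequencing adapters into accessible chromatin, so a value is a scaled count of reads that fall in a region.

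All cells were NIH/3T3, and 3 mutant lines were set against wild type (WT), with 3 libraries labelled as biological replicates in each of the 4 groups. In PTC1 a T is inserted after coding position 280 of Actg1, the gene of cytoplasmic gamma-actin, which puts the early stop in exon 3, and 1 of its 2 listed alleles also carries an A-to-G substitution. In PTC2 the insert follows position 1096, is 4036 nt long and puts the early stop in exon 5. The entire Actg1 locus is deleted in LD. Each mutant group is 1 edited line as far as the labels say, with no second clone named, so the edit and the history of the line cannot be told apart. Actg1 lies on chromosome 11 at 120345687 to 120348495 (GRCm38), and 0 regions of the table lay within 1000 bp of it, so the edits were not checked there.

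A regulatory region is open where transcription factors and remodelers keep nucleosomes away. Regions at the start sites of widely used genes are open in most cells, while distal regions, many of them enhancers, differ between cell states. The number of reads from a region also scales with the number of copies of its DNA, and NIH/3T3 is known as an aneuploid line. No library of input DNA was used here, so a higher level over a chromosome may be more copies or more open DNA per copy, in all cells or in a part of them, and these cannot be told apart. Chromosome 15 carries Myc, the Hoxc cluster of patterning factors, the type II keratins and several genes of the actin cytoskeleton and of cell adhesion, among them Myh9, Mrtfa, Ptk2 and Itga5.

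Promoters of 5 members are printed here because 4 of them lie in start-site regions that left the chromosome level in at least 1 line, and the fifth, of Myh9, kept to it. Each runs from 250 bases before the RefSeq start site to 50 after it, 5′ to 3′ along the gene's strand (GRCm38.p6). Capitals mark the motifs that were searched on both strands: the GC box GGGCGG, the AP-1 motif TGANTCA, the TEAD motif CATTCC and the TATA motif TATAAA. Parvb (plus strand, chr15:84231793-84232092) encodes beta-parvin, an adaptor between integrins and actin. Ppara (plus strand, chr15:85735526-85735825) encodes a nuclear receptor for fatty acids, Mapk12 (minus strand, chr15:89140654-89140953) the stress kinase p38 gamma, and Myh9 (minus strand, chr15:77842126-77842425) the heavy chain of non-muscle myosin IIA. Ttc38 lies on the plus strand at chr15:85832054-85832353.
Parvb: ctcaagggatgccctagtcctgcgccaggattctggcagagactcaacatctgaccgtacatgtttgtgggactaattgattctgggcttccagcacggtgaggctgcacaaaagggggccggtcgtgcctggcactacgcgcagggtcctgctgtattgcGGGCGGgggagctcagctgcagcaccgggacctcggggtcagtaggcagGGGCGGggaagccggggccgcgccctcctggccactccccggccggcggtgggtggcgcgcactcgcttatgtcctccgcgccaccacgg
Ppara: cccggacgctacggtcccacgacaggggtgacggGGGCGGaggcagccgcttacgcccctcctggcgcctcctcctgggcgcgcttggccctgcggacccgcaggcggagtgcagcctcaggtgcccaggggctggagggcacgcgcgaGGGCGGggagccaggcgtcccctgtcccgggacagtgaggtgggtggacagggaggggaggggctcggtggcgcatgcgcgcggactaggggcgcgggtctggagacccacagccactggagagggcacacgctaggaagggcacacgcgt
Mapk12: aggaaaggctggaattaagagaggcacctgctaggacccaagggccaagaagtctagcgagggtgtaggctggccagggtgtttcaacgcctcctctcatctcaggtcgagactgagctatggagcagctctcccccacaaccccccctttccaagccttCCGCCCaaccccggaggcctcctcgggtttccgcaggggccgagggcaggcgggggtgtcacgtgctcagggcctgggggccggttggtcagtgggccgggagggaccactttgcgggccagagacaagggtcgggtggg
Ttc38: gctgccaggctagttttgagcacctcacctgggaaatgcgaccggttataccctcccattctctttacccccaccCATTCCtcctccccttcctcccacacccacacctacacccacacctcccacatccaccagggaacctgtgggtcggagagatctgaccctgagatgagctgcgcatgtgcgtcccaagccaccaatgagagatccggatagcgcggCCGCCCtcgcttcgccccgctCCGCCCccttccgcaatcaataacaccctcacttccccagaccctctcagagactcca
Myh9: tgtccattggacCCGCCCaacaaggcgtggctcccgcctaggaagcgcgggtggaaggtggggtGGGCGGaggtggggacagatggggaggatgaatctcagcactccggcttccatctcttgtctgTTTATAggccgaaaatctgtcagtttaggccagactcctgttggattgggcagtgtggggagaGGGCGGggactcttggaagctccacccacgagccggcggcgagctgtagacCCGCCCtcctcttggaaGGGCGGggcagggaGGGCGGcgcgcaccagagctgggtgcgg
The GC box occurred in all 5 of these sequences, and it also occurs in 35.7% of the 32851 RefSeq promoters of this length and in 36.5% of the 936 on chromosome 15. The TEAD motif was found in the Ttc38 promoter and the TATA motif in that of Myh9; they occur in 14.7% and 13.6% of all promoters, and the AP-1 motif, found in none of the 5, in 7.81%. Of the 331 members within 500 bp of the start site of a named gene, 159 held such a RefSeq promoter. In 8 of these the region left the level in at least 1 line, and their median GC content was 66.2%, against 64.7% in the other 151. The GC box was found in 8 of these 8 and in 117 of the other 151, and the AP-1 motif in 1 and in 5. These are descriptions of letters, not of bound sites.

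The chromosome as a whole stood apart from WT in all 3 lines, upwards in PTC1 and PTC2 and downwards in LD. The level is the median over the 2848 members of log2(value + 1) in a library minus the mean of the WT libraries. It was 0.37, 0.38 and 0.40 in the PTC1 libraries, 0.18, 0.17 and 0.18 in the PTC2 libraries and −0.19, −0.20 and −0.19 in the LD libraries, against −0.0043, 0.00068 and 0.0056 in the WT libraries. As group medians this is 1.31-fold of WT in PTC1, 1.13-fold in PTC2 and 0.878-fold in LD, and no library of a mutant line overlapped the WT libraries. The sum of the values gave the same order: members held 5.82% to 5.84% of the sum of a PTC1 library, 4.90% to 4.93% in PTC2 and 3.93% to 3.95% in LD, against 4.43% to 4.47% in WT.

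Set beside the other chromosomes, chromosome 15 had the highest level of all 20 in PTC1, where chromosome 17 came next at 0.18. In PTC2 it was the second highest after chromosome 8, which stood at 0.24. In LD it ranked 17 from the top, above chromosomes 6, 18 and X at −0.37, −0.58 and −0.62. The 57345 regions of the other chromosomes with a mean of 50 or more stood at −0.05 (PTC1), 0.0042 (PTC2) and −0.0096 (LD) at the median.

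**Figure D1:**
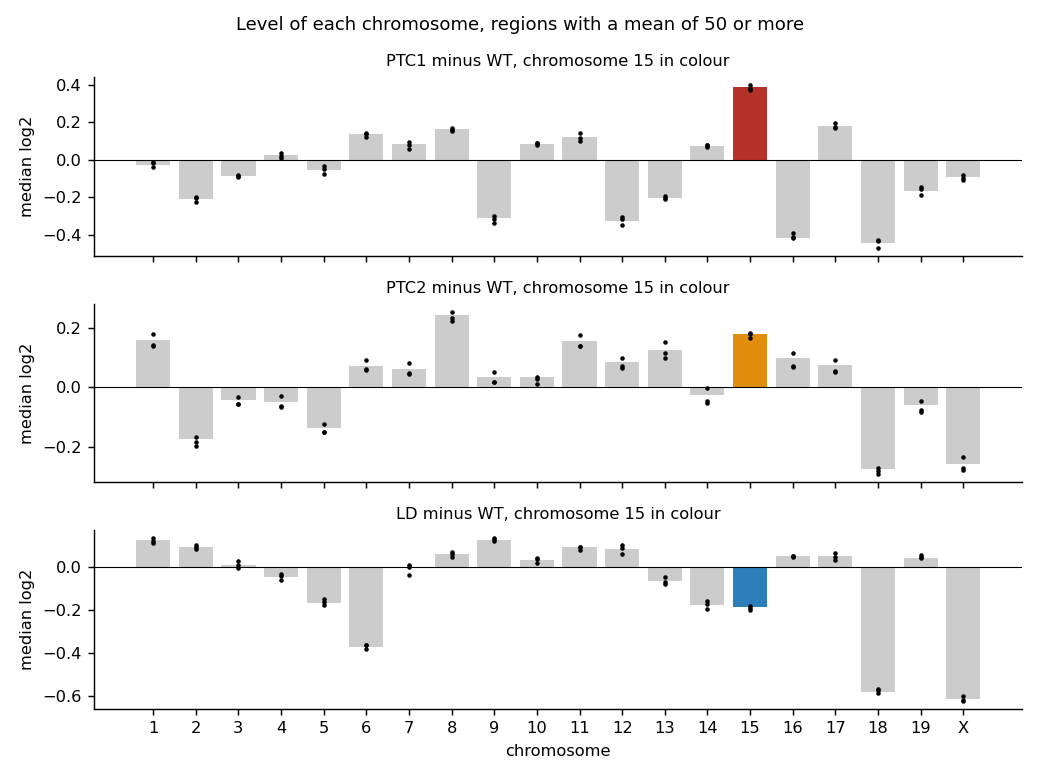
Level of each mouse chromosome in PTC1, PTC2 and LD (panels from top to bottom; the y axis is the median log2 difference from WT over regions with a mean of 50 or more; bars are group medians and points the 3 libraries). Chromosome 15, in colour, was the highest in PTC1 at 0.39, the second highest in PTC2 at 0.18 and below 0 in LD at −0.19.

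Along the chromosome the sign held in PTC1 and LD nearly everywhere and varied in PTC2. In 37 blocks of 75 neighbouring members, PTC1 ran from 0.13 in the first block (chr15:3270220-6709312) to 0.54 (chr15:25365746-27576340), and all 3 libraries lay above all WT libraries in 37 of 37 blocks. LD was below 0 in 37 of 37 blocks, from −0.44 (chr15:59484422-61170867) to −0.0079 (chr15:80024132-81586681), and all its libraries lay below all WT libraries in 34. PTC2 was above 0 in 29 blocks and below 0 in 8, from −0.30 (chr15:6721645-8897558) to 0.44 (chr15:77757784-78878039). Members were spaced 11809 bp apart at the median, with a largest gap of 4696586 bp that starts at 13367452, so blocks cover unequal lengths of DNA.

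**Figure D2:**
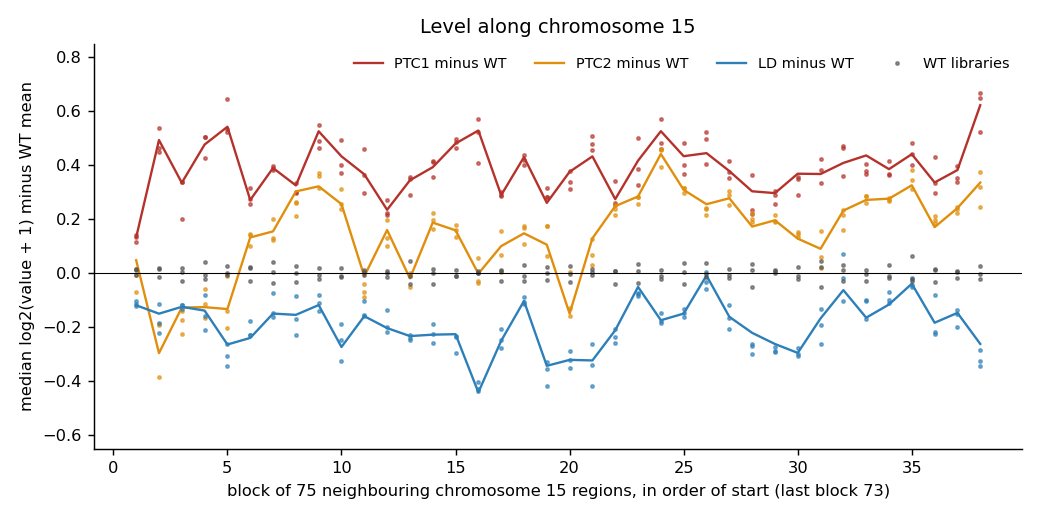
Level along chromosome 15 in blocks of 75 neighbouring regions in order of start (x axis; the last block has 73). The y axis is the median log2(value + 1) minus the WT mean; lines are groups, points single libraries. PTC1 stayed between 0.13 and 0.54 in the full blocks and LD between −0.44 and −0.0079, while PTC2 crossed 0.

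Values spread less at start sites than at members with no listed gene. Among the 374 members whose centre lies within 500 bp of a listed start site, the median was 0.41 in PTC1, 0.27 in PTC2 and −0.24 in LD, and 92.2%, 93.0% and 17.4% of them lay above 0. The 1922 members with no listed gene had medians of 0.39, 0.10 and −0.16, and spread much more: their 10th to 90th percentiles ran from −0.52 to 1.50 in PTC1, from −1.08 to 0.90 in PTC2 and from −0.86 to 0.46 in LD. At start sites those percentiles ran from 0.08 to 0.86, from 0.05 to 0.60 and from −0.45 to 0.17. In the 900 regions of chromosome 15 with a mean of 500 or more, of any kind, they ran from −0.10 to 0.70 in PTC1. There PTC2 had −0.38 to 0.53 and LD −0.60 to 0.02. Of the members with no listed gene 946 lay inside a RefSeq gene body and 976 outside, and their medians were close, at 0.38 and 0.40 for PTC1, 0.10 and 0.09 for PTC2, −0.15 and −0.18 for LD.

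**Figure D3:**
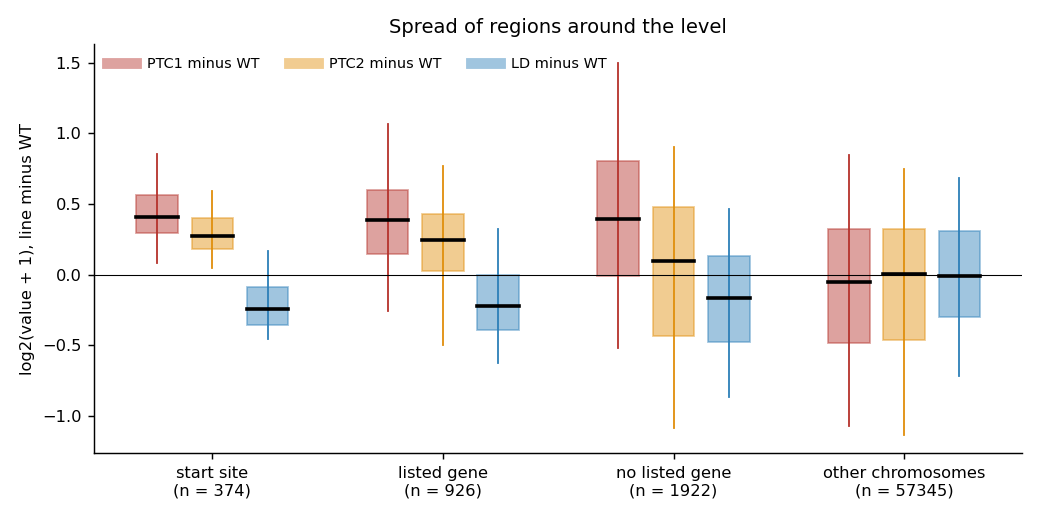
Spread of the log2 difference from WT (y axis) at start-site members, members with a listed gene, members with no listed gene and regions of the other chromosomes (x axis), for PTC1, PTC2 and LD from left to right. Boxes run from the 25th to the 75th percentile with the median as a line, whiskers from the 10th to the 90th; start-site members spread least, around 0.41, 0.27 and −0.24.

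Weak regions did not follow the same level. The 1048 regions of chromosome 15 with a mean of 5 to 50 stood at 0.81 (PTC1), 0.19 (PTC2) and −0.05 (LD) at the median, whereas the 900 with a mean of 500 or more had 0.36, 0.21 and −0.28. A mean over all libraries admits a weak region more easily where 1 group is high. In 93 members the PTC1 mean was under 50, in 264 the PTC2 mean, in 303 the LD mean and in 275 the WT mean, and 2292 reached 50 in all 4 groups. Another 98 reached it in 1 group alone, which was PTC1 in 86, PTC2 in 9, LD in 3 and WT in 0. At the limit itself, chr15:98821446-98821768 in the Prkag1 gene was just inside with a mean of 50.0, and chr15:4043080-4043374 in Oxct1 was just outside with 49.9.

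No edge was found within the chromosome at the settings used. A partition of the members into segments of at least 20 regions gave 1 segment in each of the 3 lines, although it found more than 1 segment on 9 of 20 chromosomes in PTC1, on 3 in PTC2 and on 3 in LD. With 0.5 of the penalty PTC1 had 3 segments, the middle one of 20 members (chr15:68937007-72652333) at 4.32. A minimum of 10 regions gave a tighter middle segment of 13 members (chr15:71443982-71890924) at 5.36, between flanks that both stood at 0.39. The last member before its left edge ends at 69109066 and the first after its right edge starts at 71917560. When the partition took in weaker regions, down to a mean of 5, PTC2 had an edge between 75175762 and 75192951, with 0.06 before it and 0.27 after it.

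That PTC2 step did not show at start sites. Over the members, PTC2 stood at 0.07 before the edge (n = 1585) and 0.26 after it (n = 1263), while start-site members stood at 0.28 (n = 137) and 0.27 (n = 237). Members with no listed gene stood at −0.00036 before the edge (n = 1222) and 0.25 after it (n = 700). PTC1 was 0.38 and 0.39 on the 2 sides over all members, and LD −0.22 and −0.16. The step was thus a difference between distal members of the 2 sides, and it was seen after the values had been examined.

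Single regions were compared with limma over all 81985 regions with a mean of 5 or more, and called at a Benjamini-Hochberg adjusted p under 0.05. In PTC1 1754 members were higher than in WT and 365 were lower, where 30.6% and 31.2% of all regions tested were called in those directions. In PTC2 1248 were higher and 699 lower (28.4% and 29.8% of all regions tested), and in LD 345 were higher and 1204 lower (22.6% and 24.7%). After the median of each chromosome was set to 0 in each library, PTC1 had 793 higher and 852 lower members. The split became 750 to 896 for PTC2 under that centring and 632 to 697 for LD. Over all 81985 regions tested it was 24513 to 22543 in PTC1, 20977 to 24208 in PTC2 and 18811 to 17975 in LD. Such centring makes a near-even split by construction. In none of the 3 comparisons with WT were 176 members called. The same count was not taken over all regions, so it is not read as a trait of the chromosome.

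Direct comparisons of the lines did not involve the WT libraries in the difference itself. PTC1 against PTC2 had 1374 members higher and 514 lower (31.6% and 30.9% of all regions tested, 62.5% in either direction), 932 and 851 after centring. PTC1 against LD had 1950 higher and 345 lower (34.0% and 33.7%, 67.8% in either direction), 918 and 908 after centring, and PTC2 against LD had 1535 and 488 (29.7% and 29.8%, 59.5% in either direction), 828 and 909 after centring. Over all regions tested, centring gave 26767 higher and 22481 lower for PTC1 against PTC2, and 26340 and 25597 for PTC1 against LD. For PTC2 against LD it gave 21673 and 25857. The comparisons with WT share the WT libraries, and those between lines share the lines' libraries, so their counts are not independent of each other.

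The start-site regions of well-known genes showed the level at single loci. Myc, the proto-oncogene transcription factor (chr15:61984410-61985867), had 2250, 2383 and 2547 in PTC1, 2545, 2386 and 2168 in PTC2 and 1752, 1588 and 1597 in LD, against 1902, 2028 and 1937 in WT. Both stop-codon lines lay above WT and LD below it without overlap, at log2 changes of 0.29 (limma adjusted p = 0.000163), 0.27 (adjusted p = 0.000368) and −0.25 (adjusted p = 0.00129). Myh9 (chr15:77841739-77843049) had 4548, 4407 and 4315 in PTC1, 4217, 4393 and 4179 in PTC2 and 2870, 2885 and 2921 in LD, against 3351, 3198 and 3313 in WT. Its log2 changes were 0.43, 0.37 and −0.18, and relative to the LD chromosome level it was at 0.0090, so that its lower value in LD was no larger than that of the chromosome.

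Among genes of actin-linked signalling and adhesion, Mrtfa and Ptk2 followed that order, while Itga5 and Itgb7 did not. Mrtfa, the actin-sensing coactivator of SRF (chr15:81190361-81191288), had 2624, 2573 and 2899 in PTC1, 2674, 2746 and 2663 in PTC2 and 1679, 1718 and 1772 in LD, against 2099, 2176 and 2127 in WT. Ptk2, focal adhesion kinase (chr15:73422586-73424043), had log2 changes of 0.37, 0.17 and −0.32, each with an adjusted p under the threshold. Itga5, the fibronectin receptor subunit (chr15:103366134-103367276), had 2063, 1964 and 2272 in PTC1 and 1932, 2220 and 2143 in WT. Its log2 change in PTC1 was 0.00074 (limma adjusted p = 0.993), that in PTC2 0.18 (adjusted p = 0.0119) and that in LD −0.26 (adjusted p = 0.00053). Itgb7, an integrin subunit gene of leukocytes, had a log2 change of 0.49 in PTC1 (limma adjusted p = 1.18e-08), where PTC2 had −0.75 (adjusted p = 2.15e-12) and LD −0.45 (adjusted p = 1.17e-07).

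Lists of chromosome 15 genes were counted with each gene read at its region nearest the start site, where that region is a member. This leaves out 17 genes whose nearest region averaged under 50, of which Hoxc6 and Slc38a1 have another region that is a member. Of 23 cytoskeleton and adhesion genes, PTC1 had 18 higher and 1 lower, PTC2 likewise 18 and 1, and LD 0 and 17. Their median log2 changes were 0.36 in PTC1, 0.26 in PTC2 and −0.26 in LD, where all regions tested had medians of 0.010, 0.020 and 0.011. Of 22 transcription and chromatin genes, all 22 were higher in PTC1, 19 in PTC2 with 1 lower, and 13 were lower in LD. Of 19 translation and RNA genes 17 were higher and 2 lower in PTC1, 17 were higher in PTC2 and 9 lower in LD. The 9 genes of the Myc neighbourhood were all higher in PTC1, 7 were higher in PTC2 and 5 lower in LD, and the 8 genes of glucose, lipid and mitochondrial metabolism gave 8 higher in PTC1, 6 higher in PTC2 and, in LD, 6 lower. Reading each gene at its nearest member, an alternative chosen after the data were seen, adds Slc38a1 to the metabolic genes, so that PTC1 had 9 higher and 0 lower, PTC2 had 6 and 1, and LD had 0 and 6. Of all 331 start-site members with a named gene, PTC1 had 288 higher and 11 lower, PTC2 had 264 and 10, and LD had 19 and 212. Under centring by chromosome the cytoskeleton and adhesion genes split 5 to 6 in PTC1, 6 to 3 in PTC2 and 1 to 6 in LD, and their medians became −0.02, 0.08 and −0.07. Single genes changed sign, such as Ndrg1, a stress-responsive gene, at 0.20 in PTC1 and −0.18 after centring.

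Of 8 matrix genes, 6 were higher in PTC1, 6 in PTC2 and 5 lower in LD, with none the other way and medians of 0.37, 0.40 and −0.22. Ccn3, a matricellular growth regulator (chr15:54744998-54746123), had log2 changes of −0.04 (limma adjusted p = 0.58) in PTC1, −0.04 (adjusted p = 0.5) in PTC2 and −0.66 (adjusted p = 2.19e-11) in LD. The 5 keratin genes with a member had a median of −0.20 in PTC1 (0 higher, 2 lower) and −0.11 in PTC2 (1 higher, 1 lower), although the chromosome was above 0 in both, and −0.32 in LD (4 lower). With cyclic loess normalization the keratin count in PTC1 turned to 1 higher and 0 lower. Of the 3 Hoxc genes counted in this way, PTC1 and PTC2 had 3 higher each, and LD had 1 higher and 1 lower. Hoxc6, read at its nearest member (chr15:102999040-102999487), had log2 changes of 4.23 in PTC1 (limma adjusted p = 7.86e-13) and 1.06 in LD (adjusted p = 0.00506). Its PTC2 change of 0.63 there did not pass the test (adjusted p = 0.0801). A stronger Hoxc6 member (chr15:103002094-103003082) differed in PTC2 and LD. It had 4.12 in PTC1 (limma adjusted p = 1.32e-16), 1.56 in PTC2 (adjusted p = 1.355e-07) and −0.97 in LD (adjusted p = 0.0002247). Krt80 (chr15:101370035-101370803) had 1354, 1309 and 1469 in PTC1 against 1250, 1306 and 1260 in WT, a log2 change of 0.11 that did not pass the test (limma adjusted p = 0.113). Among 17 growth factor and receptor genes, PTC1 had 11 higher and 2 lower, PTC2 had 8 and 5, and LD had 2 and 7, with medians of 0.33, 0.07 and −0.21. The 2 genes of neural adhesion and channels with a member had 1 higher in PTC1, 2 higher in PTC2, and 1 higher and 1 lower in LD. Wnt10b, a WNT ligand (chr15:98778537-98779242), had 911, 1000 and 936 in PTC1 and 683, 682 and 748 in PTC2, against 312, 380 and 391 in WT, log2 changes of 1.40 (limma adjusted p = 6.23e-14) and 0.97 (adjusted p = 2.03e-10).

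Members that leave the level are those at least 1 on the log2 scale from it, with an adjusted p under 0.05 in a limma fit on values from which the level of each segment had been subtracted. In PTC1 268 members left upwards and 213 downwards, where 12.5% and 10.3% of all regions tested did so. In PTC2 157 left upwards and 347 downwards (8.5% and 13.6% of all regions tested), and in LD 121 and 114 (6.96% and 5.26%). As shares of the members, 9.41% left upwards and 7.48% downwards in PTC1. For PTC2 these shares were 5.51% and 12.2%, and for LD 4.25% and 4.00%. The regions tested include weaker ones than the members. Among the 57345 regions of the other chromosomes with the same minimum mean as members, 8.24% left upwards and 9.61% downwards in PTC1. There PTC2 had 5.96% and 12%, and LD 4.61% and 4.18%. Beside these, members of PTC1 left somewhat more often upwards and less often downwards, while the shares of PTC2 and LD were close. Members were also chosen by size alone, without a limma fit, with 1 replicate number left out in every group. These lay at least 1 from the median of the members. Of them, 97.6% to 100% kept their sign in the libraries left out. The size was 1 or more there in 81.0% to 82.8% of those chosen in PTC1, 75.3% to 81.5% in PTC2 and 65.7% to 68.2% in LD. The libraries left out came from the same lines. Members had also been selected by a mean over all 12 libraries, those left out included. These shares therefore describe how alike the libraries of a line were and are no independent check of the departures.

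Leaving was rarer at start sites than at distal members. In PTC2 3 of 374 start-site members (0.802%) left downwards, while 294 of 1922 members with no listed gene did (15.3%). In PTC1 14 start-site members (3.74%) left upwards and 6 (1.60%) downwards, and the shares of members with no listed gene were 11.1% and 8.85%. In LD the shares were 1.87% and 1.34% of start-site members and 4.94% and 4.73% of members with no listed gene. The median value of a start-site member was 1336 and that of a member with no listed gene 180.0. Departures of at least 1 from the median of a subset were also counted by size alone. Start-site members had 5.35% in PTC1, 4.28% in PTC2 and 3.21% in LD. Members with no listed gene had 19.9%, 20.7% and 9.68%. The 900 strongest regions, averaging at least 500 and of any kind, had 4.33%, 4.89% and 1.33%. Start-site and distal members of equal strength were not compared, so the part of the gap in values in these shares was not tested.

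The largest upward departures in PTC1 with a listed gene included a phosphatase, a cytokine receptor and a transporter gene. Ptp4a3, a tyrosine phosphatase gene (chr15:73724586-73725114, inside the gene), had 320, 292 and 369 in PTC1 and 18, 16 and 6 in WT, 4.25 above the level on the log2 scale. Il2rb, the beta chain of the interleukin receptor for IL-2 (chr15:78493298-78493990), had 675, 713 and 750 in PTC1, 92, 117 and 136 in PTC2 and 17, 24 and 19 in LD, against 48, 56 and 56 in WT. No library of 1 group overlapped another group here, and the order was PTC1, PTC2, WT and LD. Slc38a1, a glutamine transporter gene (chr15:96641229-96641860), had 248, 235 and 269 in PTC1 and 10, 19 and 15 in WT.

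The promoter of Ppara printed above lies in a member (chr15:85734800-85735990) with 968, 911 and 960 in PTC1, 44, 44 and 71 in PTC2 and 157, 109 and 154 in LD, against 107, 149 and 150 in WT. It left the level upwards in PTC1 by 2.42 and downwards in PTC2 by 1.54, so the 2 stop-codon lines were on opposite sides of WT. The Parvb promoter (chr15:84231803-84232443) had 447, 412 and 595 in PTC1, 213, 211 and 226 in PTC2 and 16, 18 and 27 in LD, against 72, 109 and 92 in WT. It was 2.01 above the level in PTC1 and 1.08 above it in PTC2, and in LD it lay 1.94 below, with no overlap between any 2 groups. A4galt, a glycolipid-synthesising galactosyltransferase gene (chr15:83251283-83252318), had 333, 326 and 376 in PTC1, 36, 37 and 31 in PTC2 and 91, 93 and 90 in LD, against 38, 75 and 38 in WT.

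Departures downwards in PTC1 included a stress-kinase promoter and several receptor genes. Mapk12 (chr15:89140036-89141292) had 59, 81 and 57 in PTC1, 588, 513 and 631 in PTC2 and 347, 353 and 413 in LD, against 270, 202 and 332 in WT. It was 2.39 below the level in PTC1 alone, and above WT in all libraries of PTC2 and LD. Prlr, the prolactin receptor gene (chr15:10175315-10175999), had 71, 50 and 51 in PTC1, 34, 33 and 32 in PTC2 and 71, 69 and 72 in LD, against 164, 195 and 143 in WT, so all mutant lines lay below WT. Npr3, the clearance receptor of natriuretic peptides, had 85, 103 and 102 in PTC1 and 297, 279 and 236 in WT at a region inside the gene (chr15:11903880-11904722). Ghr, the growth hormone receptor gene, stood 1.66 below the level at chr15:3578343-3578624, and Asic1, an acid-sensing channel gene, 1.94 below it at chr15:99670346-99670922. The remaining named genes of PTC1 were Cela1, a pancreatic-type elastase gene, and Hoxc6 upwards, with Ccdc152, Zc3h3 and Slurp1 downwards.

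In PTC2 the highest departures with a listed gene lay at Hoxc12, Fzd6, Nell2 and Krt5. Krt5, a keratin of basal epithelial cells, had 936, 920 and 933 in PTC2, 200, 203 and 213 in PTC1 and 126, 120 and 88 in LD, against 203, 188 and 191 in WT at a region 2789 bp from its start site (chr15:101715000-101716373). Fzd6, a WNT receptor gene, had 175, 158 and 152 in PTC2 and 14, 23 and 22 in WT at its start site (chr15:39005888-39006564), and in PTC1 it lay 1.54 below the level with 18, 9 and 3. The start-site member of Nell2, a secreted glycoprotein of neurons (chr15:95527792-95528835), had 287, 172 and 214 in PTC2 and 129, 96 and 122 in LD, against 37, 41 and 33 in WT. It was raised in 2 lines, and PTC1 with 32, 34 and 38 overlapped WT. Smpd5, a sphingomyelinase gene, left upwards in PTC2 by 1.71 and in LD by 1.62, and downwards in PTC1 by 1.02. Gm49510, Shisal1 and Krt84, a hair keratin gene, were the other named genes upwards.

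**Figure D4:**
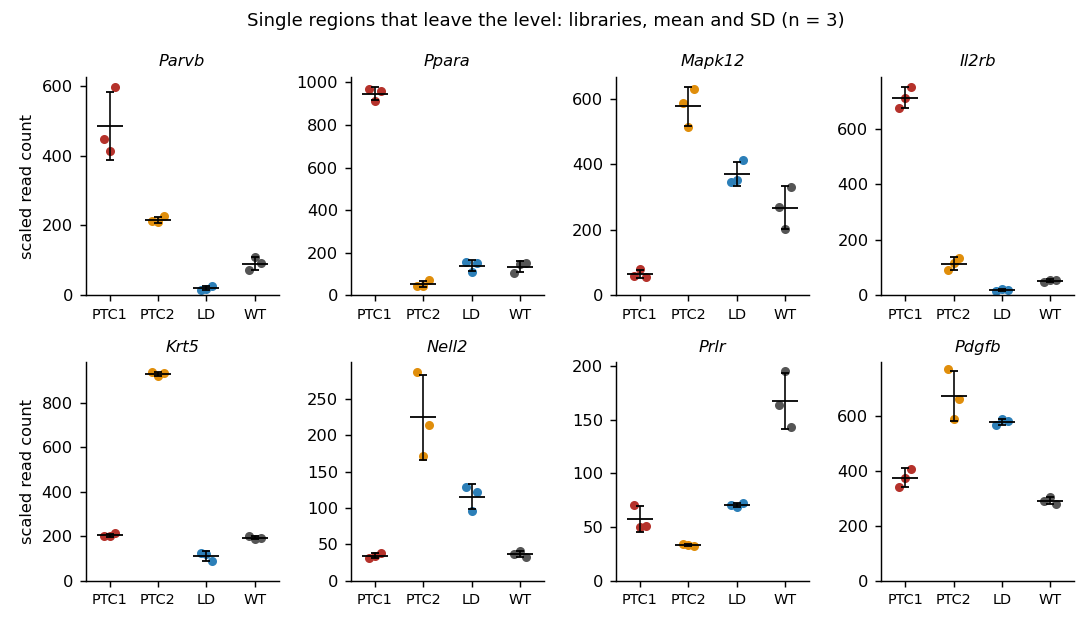
Scaled read counts (y axis) of 8 single regions in PTC1, PTC2, LD and WT (x axis); points are libraries, with the mean as a horizontal mark and the SD as a bar (n = 3). Parvb had 447, 412 and 595 in PTC1 and 16, 18 and 27 in LD, and Krt5 stood out in PTC2, with 936, 920 and 933.

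Downwards, PTC2 had Prlr at 2.48 below the level, and Maff, Ppara, Lypd2, Pmm1, Npr3, Zc3h3 and Slc48a1 between 1.55 and 1.33 below it. Maff, a small MAF transcription factor gene, had 55, 57 and 44 in PTC2, 78, 89 and 86 in PTC1 and 60, 48 and 31 in LD, against 131, 142 and 132 in WT, 3426 bp from its start site (chr15:79343101-79343288). A second Npr3 member at the start of the gene (chr15:11905901-11907498) had 404, 429 and 503 in PTC2 and 1222, 1150 and 1167 in LD, against 1110, 997 and 1130 in WT. Lypd2, a Ly6-family gene, had 320, 341 and 345 in PTC2 and 877, 800 and 880 in WT.

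LD had 235 departures, fewer than the 481 of PTC1 and the 504 of PTC2. These were 8.25%, 16.9% and 17.7% of the members. On the other chromosomes, regions with the same minimum mean had 8.79% in LD, 17.8% in PTC1 and 17.9% in PTC2. The lower count in LD was thus not particular to chromosome 15. Upwards in LD were Nell2, Smpd5, Aqp2, Amigo2, Cyp2d22, Znf385a, Enthd1 and Pdgfb, and downwards Parvb, Slurp1, Ly6g, Maff, Tns2, Il2rb, Galr3 and Ttc38. Pdgfb, the platelet-derived growth factor B chain (chr15:80012424-80014930), had 565, 588 and 579 in LD, 768, 587 and 660 in PTC2 and 339, 375 and 407 in PTC1, against 291, 305 and 278 in WT, so every mutant library lay above WT. Amigo2, a neuronal adhesion gene (chr15:97247224-97247902), had 129, 90 and 129 in LD and 47, 48 and 49 in WT. Tns2, a tensin of focal adhesions, had 52, 36 and 68 in LD and 183, 120 and 146 in WT at a region 4319 bp from its start site (chr15:102095917-102096270), inside the Eif4b gene. The Ttc38 promoter printed above lay in a member with 71, 78 and 57 in LD, 248, 245 and 292 in PTC1 and 233, 234 and 276 in PTC2, against 164, 186 and 147 in WT.

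Some distal members were close to 0 in 1 group. The region chr15:65550723-65551286, 236016 bp from Efr3a, the nearest RefSeq gene, had 2, 0 and 1 in LD, 189, 227 and 165 in PTC1 and 244, 225 and 251 in PTC2, against 138, 122 and 168 in WT. It was the lowest of the named LD departures, 6.10 below the level on the log2(value + 1) scale, which understates changes of low regions. Upwards in LD, chr15:95838124-95839097 in Ano6, a scramblase gene, had 437, 381 and 392 in LD and 41, 37 and 45 in WT, and chr15:97315215-97316006 in Pced1b had 940, 960 and 1010 in LD and 147, 128 and 142 in WT. A region in Cdh12, a neuronal cadherin gene (chr15:20642878-20643544), had 132, 169 and 135 in PTC1, 19, 20 and 17 in PTC2 and 14, 14 and 6 in LD, against 235, 265 and 245 in WT. In PTC1, chr15:83305205-83305908 in Arfgap3 had 35, 33 and 32, against 247, 292 and 329 in WT, and was the lowest named there.

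Some gene bodies held members that moved in opposite directions in different lines, or in some of the lines only. A region in Stk3, a Hippo pathway kinase gene (chr15:35025593-35025968), had 11, 15 and 5 in PTC1, 17, 18 and 38 in PTC2 and 199, 209 and 223 in LD, against 66, 51 and 67 in WT. Both stop-codon lines lay below every WT library and LD above every one. A region in Pdzrn4 (chr15:92654426-92655005) had 402, 410 and 355 in PTC1, 22, 31 and 30 in PTC2 and 4, 5 and 1 in LD, against 38, 76 and 51 in WT. There PTC1 lay above WT, and PTC2 and LD below it. A region in Nckap1l, a WAVE complex gene of blood cells (chr15:103476696-103477477), had 19, 21 and 21 in PTC2, 347, 352 and 264 in PTC1 and 88, 133 and 83 in LD, against 223, 211 and 220 in WT. One in Nipal2 (chr15:34587141-34587776) had 17, 18 and 15 in PTC2 and 81, 81 and 50 in PTC1, against 166, 142 and 208 in WT, and the LD values of 221, 266 and 185 overlapped WT. In Fbln1, the gene of the matrix protein fibulin-1 (chr15:85243182-85243482), PTC2 had 123, 155 and 173 and LD 13, 18 and 20, against 14, 14 and 14 in WT.

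A minority of the departures lay in runs of neighbours. Runs of 4 or more consecutive members that left in the same direction, a length chosen after the values were seen, numbered 14 upwards (85 members) and 4 downwards (21 members) in PTC1. PTC2 had 4 upwards (22 members) and 8 downwards (48 members), and LD 3 upwards (13 members) and 2 downwards (15 members). Runs thus held 22.0% of the departures in PTC1, 13.9% in PTC2 and 11.9% in LD, where they held 17.3%, 15.7% and 14.8% of the departures on the other chromosomes among regions with a mean of 50 or more. The longest, of 13 members over 446942 bp (chr15:71443982-71890924), was the stretch in the bodies of Fam135b and of Col22a1, a collagen gene. Its values summed to 9099, 9314 and 8910 in PTC1, 152, 190 and 163 in PTC2 and 110, 149 and 125 in LD, against 298, 252 and 212 in WT. In all its members but the strongest (chr15:71702759-71703398), PTC1 alone averaged 50 or more. Such members passed the limit of 50 only through 1 group, which was PTC1 in 86 of 98 on this chromosome. The limit thus favours upward runs in PTC1, and its part in the number and size of these runs was not tested.

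Within that stretch the PTC1 log2 changes ran from 3.39 to 6.84. At its strongest member (chr15:71702759-71703398) PTC1 had 1929, 2032 and 2031, PTC2 14, 6 and 19 and LD 8, 21 and 12, against 101, 101 and 79 in WT. The next member outside it (chr15:71917560-71918280), also in Col22a1, had 190, 184 and 217 in PTC1 and 133, 89 and 74 in WT. A second PTC1 run of 6 members near and in Tafa5 (chr15:86696340-87717427) summed to 3805, 3957 and 4025 in PTC1 and 182, 203 and 161 in WT. PTC2 with 74, 75 and 70 and LD with 52, 102 and 65 lay below WT in both lines.

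The Hoxc cluster held 2 PTC1 runs. The first (chr15:102893396-102961173), with members listed to Hoxc12 and Hoxc11, summed over 6 members to 2013, 1956 and 2049 in PTC1, 1054, 990 and 964 in PTC2 and 112, 190 and 163 in LD, against 155, 186 and 195 in WT. It was also a PTC2 run, while LD overlapped WT. One of its members (chr15:102947235-102948078) overlaps the end of Hotair, a long non-coding RNA gene at 102944062 to 102947946, and had 306, 301 and 349 in PTC1, 81, 66 and 81 in PTC2 and 9, 34 and 27 in LD, against 13, 21 and 27 in WT. The second run (chr15:102999040-103028297), of 5 members in Hoxc6 and Hoxc4, summed to 2074, 1953 and 2096 in PTC1, 319, 332 and 342 in PTC2 and 133, 133 and 128 in LD, against 157, 155 and 158 in WT. Between the runs the Hoxc8 member (chr15:102987190-102987864) had 273, 222 and 239 in PTC1 and 136, 181 and 133 in WT, 0.32 above the level (limma adjusted p = 0.0559).

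**Figure D5:**
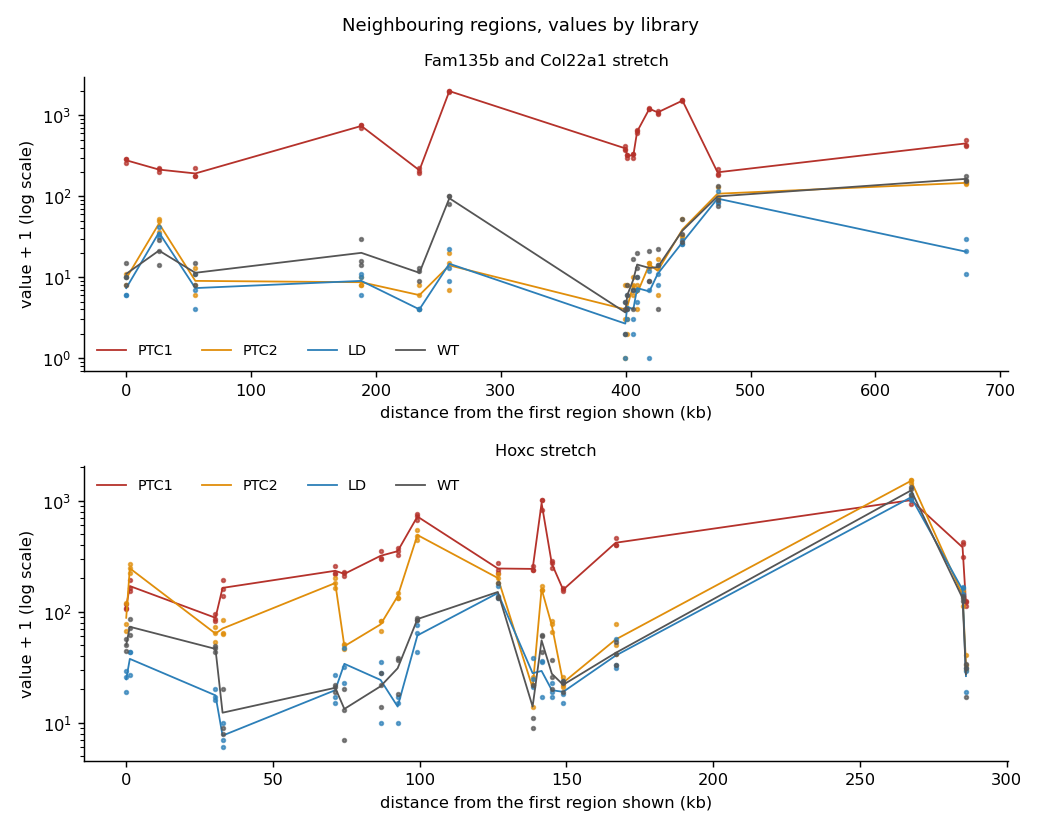
Values plus 1 on a log axis (y) of neighbouring members in the Fam135b and Col22a1 stretch (top) and the Hoxc stretch (bottom), against the distance from the first region shown in kb (x); points are libraries and lines join the group means. In the top panel PTC1 stands above the other groups over 13 members that sum to 9108 on average, against 168 in PTC2, 128 in LD and 254 in WT, and in the bottom panel PTC2 follows PTC1 over the first run only in part.

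Other runs differed in direction between lines. Around Marchf11, a ubiquitin ligase gene, 10 members (chr15:26051322-26437645) summed to 572, 531 and 584 in LD, 694, 621 and 615 in PTC2 and 4679, 4834 and 4513 in PTC1, against 1482, 1463 and 1469 in WT. Outside genes, 5 members over 2659444 bp (chr15:46604231-49263675) summed to 2886, 2801 and 2778 in PTC1, 465, 451 and 458 in PTC2 and 25, 47 and 21 in LD, against 630, 540 and 565 in WT. In both stretches PTC1 lay above WT and LD below it. Around Lifr, the receptor of leukemia inhibitory factor, and Egflam, 8 members (chr15:7128933-7217324) summed to 396, 435 and 373 in PTC2, 2070, 2203 and 2228 in PTC1 and 2063, 1899 and 2065 in LD, against 1541, 1593 and 1524 in WT.

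PTC2 had its highest run around Shisal1, where 8 members (chr15:84295134-84513284) summed to 3733, 3883 and 3888 in PTC2, 2778, 2819 and 2800 in PTC1 and 768, 788 and 765 in LD, against 1047, 1022 and 915 in WT. Its strongest departure (chr15:84469361-84469957) had 671, 838 and 752 in PTC2, 163, 163 and 183 in PTC1 and 18, 30 and 30 in LD, against 16, 27 and 14 in WT. A run of 4 members in Nell2 (chr15:95370653-95528835) was shared by PTC2, with sums of 915, 731 and 786, and LD, with 411, 406 and 508, against 170, 150 and 146 in WT. In PTC1 the sums were 246, 264 and 243, above WT, and the median member lay 0.02 below the level of the chromosome.

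The labelled cell type was checked at marker genes on all chromosomes, each read at its region nearest the start site. All 9 fibroblast markers had a region, and their values summed to 14965 to 15303 in PTC1, 16380 to 17779 in PTC2 and 14540 to 15378 in LD, against 16170 to 17010 in WT. Vim averaged 4811 in PTC1, 4749 in PTC2 and 5010 in LD, against 5094 in WT, and Pdgfrb 1027 in PTC1, 1588 in PTC2 and 1128 in LD, against 1576 in WT. Of 4 epithelial markers only Krt8 had a listed region, at 335 to 434 over the group means, of 3 endothelial markers Kdr, at 101 to 165, and Cdh5, at 13.3 to 37.3, and of 2 blood markers Ptprc, at 355 to 563, and Spi1, at 10.7 to 20.3. Epcam, Cdh1, Krt18 and Pecam1 had none. Summed values of the epithelial list were 339 to 433 in PTC1, 371 to 420 in PTC2 and 326 to 349 in LD, against 416 to 457 in WT. Those of the endothelial list were 173 to 197 in PTC1, 161 to 197 in PTC2 and 115 to 134 in LD, against 139 to 199 in WT, and those of the blood list 348 to 422 in PTC1, 370 to 384 in PTC2 and 516 to 584 in LD, against 532 to 603 in WT. The 3 neural markers summed to 1947 to 2098 in PTC1, 601 to 666 in PTC2 and 780 to 827 in LD, against 826 to 908 in WT. Sox2 averaged 1025 in PTC1 and 23.0 to 32.3 in the other groups, and Syt1 464.0 in PTC1 and 17.3 to 32.7 in the others, whereas Tubb3 was lowest in PTC1, at 511.0 against 824.0 in WT. Sox2 and Syt1 were thus high in the libraries that hold the PTC1 runs. Of the 9 fibroblast markers, Pdgfrb, Thy1 (594 against 892), S100a4 (1801 against 2440), Col1a2, Col3a1 and Vim averaged lower there than in WT. Pdgfra (501 against 271), Fn1 (2638 against 2273) and Col1a1 (1626 against 1520) averaged higher. The part of these markers in those runs was not tested.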

How the data were processed

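ATAC-seq, 25000 cells a sample, was read from 1 table of regions (mm10). Its values are scores: per the file's values, read counts per region that the authors scaled by 1 factor per sample and rounded, so raw depth is unknown; columns sum to 31.3 to 34.8 M (mega). Trimmomatic 0.39, STAR 2.7.10a, Picard 2.25.5 and DESeq2 1.30.1 are named in the submitters' processing notes; which peak caller was run, and whether Tn5 cuts were shifted, is not given in the sources used here. The authors' table also gives the distance to a listed gene's start site and the fraction of the region inside it. A listed gene is one the table pairs with the region; gene bodies and promoters came from RefSeq (GRCm38.p6).

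The 81985 regions whose mean reached 5 were compared with limma 3.58.1 (R 4.3.3) on log2(value + 1) with a mean trend, 1 mean per group and all 12 libraries, with Benjamini-Hochberg adjustment. No raw counts were used, so no count model was fitted. Segments came from optimal partitioning on absolute deviations (Python 3.11.15, numba 0.67.0), with a penalty of 5 times the natural log of the number of regions, at least 20 regions a segment, and neighbours within 0.2 merged. Members that leave the level were called after subtraction of each segment's median. On simulated libraries (PTC1 against WT, 81985 regions) the limma fit recovered 10 of 50 regions changed by 0.5 on the log2 scale, 48 of 50 at 1, 50 of 50 at 2 and 50 of 50 at 3, and 10 of its 168 calls were unchanged regions. Those simulated libraries had 1 setting of the spread for all regions, and few regions were changed, in PTC1 alone. In the data 50658 of 81985 regions were called in PTC1 against WT. The share of false calls in the data therefore cannot be read from that simulation. The partition found the true number of segments in 20 of 20 simulated chromosomes. Their noise was independent from region to region, without runs of neighbours. Neither a step as small as that of PTC2 nor a segment as short as the PTC1 stretch of 13 members was simulated. This result therefore does not cover such edges. Subtraction of the level was not simulated. Replicate numbers did not pair libraries (correlations of deviations −0.016 to 0.073). An exact permutation test of 3 against 3 libraries cannot go below 0.1 and was not used for the levels. Labels call the libraries biological replicates but do not say whether cultures were separate beyond that, so p-values measure the spread between these libraries.

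Named genes were, per line, the 8 highest and 8 lowest departures with a listed gene, the 3 highest and 3 lowest without one (no overlap of the line's 3 libraries with those of WT, the higher group averaging at least 50, 1 per gene and per 100000 bp), members at edges, up to 4 genes a list with the lowest adjusted p, regions next to the limit of 50, and the landmarks Myc, Hoxc, Ptk2, Myh9, Mrtfa, Pdgfb, Itga5 and Col2a1. Members, lists and rules were chosen with earlier results of these data known. Other values tried were the pseudocount, filters, scaling, centring, the replicate block, settings of the partition and each library left out.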

Additional observations from a re-analysis of the deposited data

Results flagged for a closer look

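The chromosome level differed between lines in direction: every PTC1 library lay above and every LD library below all WT libraries, with medians 0.576 apart (PTC1 minus LD) on the log2 scale, and for PTC2 and LD the gap was 0.368 (PTC2 minus LD). That difference was not tested, and groups of 3 were not screened for single libraries that stand apart.

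Some members left the level in opposite directions in different lines. The differences below are between the lines themselves on the log2(value + 1) scale, each with a limma adjusted p under 0.05, and they describe members that were chosen for their departures. PTC1 minus PTC2 was 5.11 at Slc38a1, 4.17 at Ppara, 6.53 at chr15:87715221-87715702 in Tafa5, 6.42 at chr15:71632281-71633133 in Fam135b, −4.15 at Fzd6 and −2.53 at Smpd5. PTC1 minus LD was 5.1 at Il2rb, 4.53 at Parvb and −2.07 at Smpd5, and PTC2 minus LD was 3.38 at Parvb and −2.1 at Enthd1. At the Stk3 member described above, PTC1 minus LD was −4.33 and PTC2 minus LD −3.15. At the Pdzrn4 member, PTC1 minus PTC2 was 3.78 and PTC1 minus LD 6.63. Some of these opposite departures rest on low values in the lower line and in WT. At Fzd6 the PTC1 values overlapped those of WT. At the Fam135b member PTC2 had 7, 7 and 9, against 29, 13 and 15 in WT.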

How the results depend on the processing

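The direction of the chromosome level was the same under each alternative tried on it. It lay at 0.3622 in PTC1 with a mean of 100 or more and 0.4445 with a mean of 5 or more. In PTC2 it was 0.2752 with columns scaled to the same median, 0.249 over members with a listed gene and 0.09803 over those with none. In LD it was −0.179 with a pseudocount of 10, −0.2619 with columns scaled to the same median, −0.2186 over members with a listed gene, −0.1648 over those with none, and −0.2161 and −0.1651 with a mean of 100 or more and of 5 or more. Scaling to the same median moved the median of all regions to 0.115 in PTC2 and −0.0625 in LD, and relative to that the chromosome stood about where it did before. With 1 library left out, the level ran from 0.1698 to 0.1831 in PTC2 and from −0.20 to −0.1829 in LD.

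Centring by chromosome removes the level by construction, and it left 793 higher and 852 lower members in PTC1, 750 higher in PTC2, and 632 and 697 in LD. It turned the sign of Ndrg1 in PTC1 (−0.1803) and PTC2 (−0.1455, and −0.0909 with cyclic loess), Ccn4 (−0.08348), Pdgfb (−0.02964), Krt5 (−0.3029), Krt80 (−0.2714), Sdc2 (−0.006852) and Sema5a (−0.01252) in PTC1, and Myh9 (0.009022), Atad2 (0.001698), Vdr (0.1662) and Rpl30 (0.02333) in LD. PTC1 had 3 segments with 0.5 of the penalty, 3 with a minimum of 10 regions, 3 with a mean of 5 or more, and 5 with a minimum of 10 and 0.5 of the penalty, a pair of settings chosen after seeing the data, which added a segment of 12 Hoxc members (chr15:102893396-103028297) at 3.54. PTC2 had 2 segments with a mean of 5 or more. Asking for 2 in place of 1 on the log2 scale left 122 departures in PTC1, 99 in PTC2 and 36 in LD. Where no construction is named, the cause was not tested.

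A replicate block gave 1767 higher and 365 lower members in PTC1, 1259 and 708 in PTC2 and 352 and 1225 in LD. The numbers did not pair the libraries, and the block changed no count by more than 1.5 times. Of 792 values of single departures under the alternatives, 786 kept their call and 6 lost it. Of 1443 values of list genes, 1362 kept it, 41 lost it, 27 gained it and 13 turned sign. The raw depth is unknown, so no counting interval is given, and changes of weak regions, understated by the pseudocount, are the least certain.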
